A study of Mus musculus with 8 samples.

Results

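The Bex (brain expressed X-linked) and Tceal (transcription elongation factor A-like) genes encode small, related proteins, and 7 of them are described here across 8 arrays of mouse pro-B cells: Bex1, Bex2, Bex3, Bex4, Bex6, Tceal1 and Tceal8. They are 7 of the 18193 genes that the array names with a single symbol. All probe sets that carry one of these symbols were taken, which gave 7 probe sets, 1 per gene. Bex3 is also known as Ngfrap1, a synonym in RefSeq. The 7 genes were chosen by their log2 difference between these same 2 groups, so their levels and differences are given as a description, without p-values.

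The cells were early B-cell progenitors known as Fraction B, sorted from bone marrow as B220+ CD43+ HSA+ BP-1- cells. The 4 control mice were MenF/F and the 4 menin-deficient mice were Rag1-cre;MenF/F, with 4 arrays in each group that the labels call biological replicates. The labels give an age of 2 to 3 weeks and the series design 3 weeks. All 8 mice carried floxed Men1, and Cre was carried by the menin-deficient mice alone, so loss of menin and presence of Cre cannot be told apart. The Cre is named for Rag1, a gene that early lymphocyte progenitors switch on, and no source used here gives the share of sorted cells in which Men1 was deleted. The values are sums over many cells, in which more cells with a transcript and more transcript in each cell cannot be told apart.

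Men1 encodes menin, which joins the MLL histone methyltransferase at its target genes. The brightest Men1 probe set lay between 9.19 and 9.81 (log2 signal) in control and between 7.85 and 8.50 in menin-deficient arrays. The groups did not overlap, and Men1 fell by 1.39 on the log2 scale (SE 0.18, limma adjusted p = 0.00391), with differences of -1.38 and -0.37 in its other probe sets. Whether any of them reads the deleted stretch of the gene is not said in the sources used here. Over the whole table, 2536 of 11885 genes (21.3%) changed, 1922 higher and 614 lower. Of the calls 75.8% were higher as deposited, 64.8% after quantile normalization, 60.8% after centring on all probe sets and 48.4% (911 higher, 971 lower) after centring on the median tested gene. With 4 arrays a group, precision is limited by their number.

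Most Bex and Tceal genes lie side by side on the X chromosome, among genes of the Armcx and Gprasp families, and are known for high expression in neurons. Bex3, also called NADE, binds the p75 neurotrophin receptor and has been tied to cell death, and Bex1 binds the same receptor and has been tied to the cell cycle and to NF-kB. Human BEX2 has been found with LMO2, a partner of blood cell transcription factors, and the Tceal proteins resemble the RNA polymerase II elongation factor TFIIS.

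A pair of short motifs in their promoters is shown first, since 5 of the 7 genes share it. The choice of genes did not use the pair, but the pair was set after their promoter sequences had been read. RefSeq promoter windows (GRCm38.p6) were used, each running from 250 bases before the transcription start to the 50th base from it, and all 7 genes matched a window. In Bex1, Bex3, Bex4, Tceal1 and Tceal8 the window held the letters TGACG followed, after a spacer, by CACGTG, a pair of motifs searched on both strands with a spacer of 4 to 12 bases. The 2 motifs cannot overlap in this search, and it was set after the windows had been read. In capitals are the 2 motifs, with 5 bases on either side:
Bex4: gcttcTGACGcaagtggCACGTGactag
Bex1: gcttcTGACGcaagtggCACGTGactag
Tceal8: attgaTGACGcgatcctCACGTGaccag
Tceal1: agctgTGACGcgctcccctCACGTGaccag
Bex3: ggcagTGACGcagggccctCACGTGacccg

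The stretches lie at chrX:136138970-136138997 on the plus strand for Bex4, chrX:136215506-136215533 on the minus strand for Bex1, chrX:136172224-136172251 on the minus strand for Tceal8, chrX:136707962-136707991 on the plus strand for Tceal1 and chrX:136270261-136270290 on the plus strand for Bex3. The spacer had 7 bases in Bex4, Bex1 and Tceal8 and 9 bases in Tceal1 and Bex3. The pair began 21 bases before the transcription start in Bex4 and 15 bases before it in Bex1 and Tceal1, and it began at base 6 of the transcript in Tceal8 and base 14 in Bex3.

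The share of windows with the pair is no test, since the search was set after the windows had been read. Bex1 and Bex4 are not separate cases, since their windows are nearly the same. Such a pair was rare. It was found in 56 of 32851 windows (0.17%), which belonged to 52 genes, 14 of them on the X chromosome, while 7.15% of windows held CACGTG anywhere and 20.8% held TGACG on either strand. The 8 letters TCACGTGA were in 0.974% of windows and in 3 of the 7 genes (Bex3, Tceal1 and Tceal8). Bex6, the only one of the 7 that RefSeq places off the X chromosome (on chromosome 16), had neither TGACG nor CACGTG in its window. The windows of the 7 genes held 3 to 13 CG dinucleotides, against a median of 7 over all windows (quartiles 3 and 20).

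Close relatives carried the same kind of stretch, and 2 of them differed from it by a single base. Tceal5, whose array probe set is shared with Tceal3 and Tceal6, held the pair, while Tceal9 and Tceal7 each missed it by 1 substitution, counted from 1 at the first base of the TGACG motif (C15T in Tceal9, G5A in Tceal7):
Tceal5: actggTGACGttcctgtCACGTGatcag
Tceal9: actggTGACGtagatctCATGTGaccag
Tceal7: gaagaTGACAtaatcctCACGTGattag

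These lie at chrX:136203889-136203916 (minus strand), chrX:136245071-136245098 (plus strand) and chrX:136223964-136223991 (plus strand). For these near matches only the part of the window around the transcription start was searched, and the first match was kept. How many of all windows come within a single base of the pair was not counted, so the share given for the exact pair does not apply to them. A match or a mismatch describes these letters only and says nothing of what binds there.

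Bex2 and Bex3 share much of their promoter sequence, and Bex1 and Bex4 nearly all of theirs. The Bex1 and Bex4 windows matched at 287 of 290 aligned bases, with an unbroken identical run of 271 bases. Those of Bex2 and Bex3 matched at 197 of 199 aligned bases, with an identical run of 162. In the 19 other pairings of the 7 genes the longest identical run was 8 to 14 bases. Bex2 is shown beside Bex3 because it is the gene with the largest difference and lacks the pair in its window. Capitals mark the shared run, and both sequences end 30 bases into the transcript:
Bex2: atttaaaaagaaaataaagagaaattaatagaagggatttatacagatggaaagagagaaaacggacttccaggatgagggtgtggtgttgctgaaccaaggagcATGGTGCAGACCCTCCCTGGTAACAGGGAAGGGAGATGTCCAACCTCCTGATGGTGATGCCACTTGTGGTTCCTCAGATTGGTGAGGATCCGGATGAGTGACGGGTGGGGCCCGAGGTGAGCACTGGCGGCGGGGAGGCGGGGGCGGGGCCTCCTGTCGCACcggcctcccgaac
Bex3: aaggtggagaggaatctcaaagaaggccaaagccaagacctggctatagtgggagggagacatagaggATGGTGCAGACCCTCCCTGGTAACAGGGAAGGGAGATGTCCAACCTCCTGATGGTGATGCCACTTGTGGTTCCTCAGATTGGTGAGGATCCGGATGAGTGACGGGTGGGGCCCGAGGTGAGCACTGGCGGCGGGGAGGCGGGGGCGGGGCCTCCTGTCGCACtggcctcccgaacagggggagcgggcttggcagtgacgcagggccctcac

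They lie at chrX:136068207-136068486 (minus strand) and chrX:136270003-136270282 (plus strand). The shared run sits 37 bases nearer the end of the window in Bex2, so the bases that would face the Bex3 pair lie past the Bex2 window and were not analysed here. This similarity is of promoter windows, not of the stretches that the array probes read. Whether each probe set separates Bex1 from Bex4, or Bex2 from Bex3, was not tested. In control arrays the Bex2 probe set had a mean log2 signal of 4.29 and that of Bex3 14.09.

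All 7 genes had a higher mean in menin-deficient than in control pro-B cells. In 6 of the 7 every menin-deficient array lay above every control array, against 20.3% of all 11885 tested genes, and the same 6 passed an adjusted p of 0.05 as higher in the fit over all genes, against 16.2% of genes higher there and 5.17% lower. Bex6 did neither. Nothing is read from these counts, since the genes were chosen with this comparison known. The median difference of the 7 was 0.84 on the log2 scale (lowest 0.47 in Bex3, highest 3.22 in Bex2), beside a median of 0.11 for all tested genes.

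**Figure D1:**
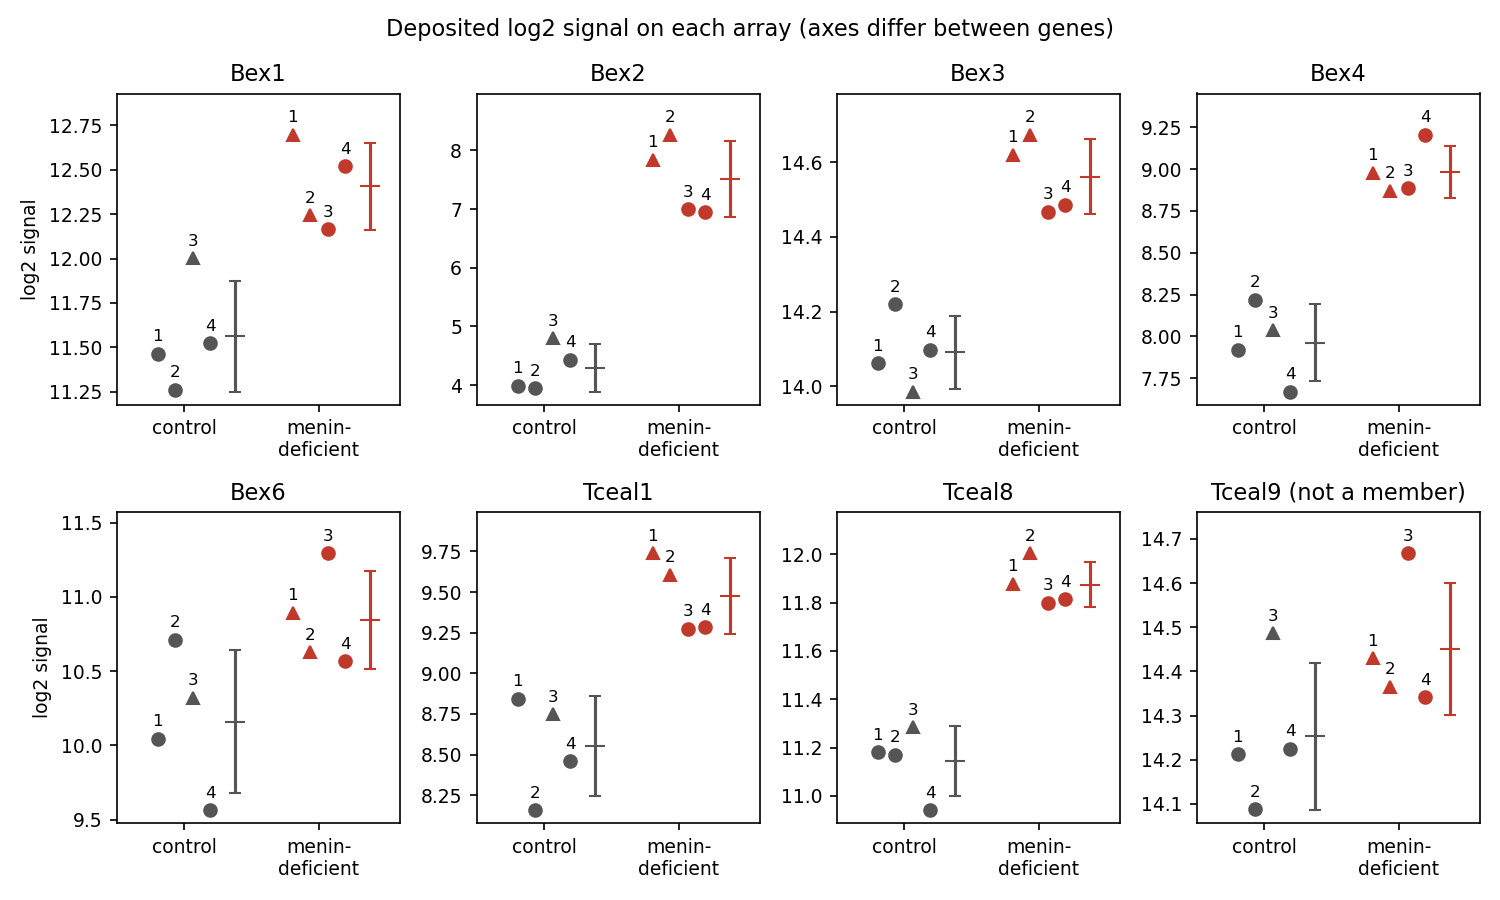
Deposited log2 signal (vertical axes, which differ between genes) of the 7 Bex and Tceal genes and of Tceal9 on each array, control in grey and menin-deficient in red; numbers are replicate numbers, circles female and triangles male mice by Xist and Eif2s3y, and crosses with bars show mean and SD (n = 4). The groups are apart in Bex1, Bex2, Bex3, Bex4, Tceal1 and Tceal8 and overlap in Bex6 and Tceal9.

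Bex2, whose human counterpart has been found with LMO2, differed most. Taken in the order of replicates 1 to 4, here and for each gene that follows, the control arrays read 3.99, 3.95, 4.80 and 4.43 (log2 signal) and the menin-deficient arrays 7.84, 8.27, 7.00 and 6.95. The lowest menin-deficient array was 2.14 above the highest control array. Group means were 4.29 ± 0.40 and 7.51 ± 0.65 (SD, n = 4 each), a difference of 3.22 (SE 0.35) or 9.33-fold, the fifth highest of all tested genes. Control arrays were not far above the lowest value of the table (2.08), so this fold is approximate.

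Bex4, the close relative of Bex1, had log2 signals of 7.92, 8.22, 8.04 and 7.67 in control and 8.98, 8.87, 8.89 and 9.21 in menin-deficient arrays. Means were 7.96 ± 0.23 and 8.99 ± 0.16 (SD, n = 4 each), and the difference was 1.02 (SE 0.13), or 2.03-fold. The groups were 0.65 apart at their nearest arrays.

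Bex1, the p75 receptor binder, had log2 signals of 11.46, 11.26, 12.00 and 11.52 in control and 12.70, 12.24, 12.16 and 12.52 in menin-deficient arrays. Control replicate 3 came within 0.16 of the lowest menin-deficient array, the narrowest gap among the 6 genes whose groups were apart. Means were 11.56 ± 0.31 and 12.41 ± 0.25 (SD, n = 4 each), with a difference of 0.84 (SE 0.19), or 1.79-fold.

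Bex3, the cell death-linked p75 partner, was the least changed of the 7 and among the steadiest. Its log2 signal was 14.06, 14.22, 13.99 and 14.10 in control and 14.62, 14.67, 14.47 and 14.49 in menin-deficient arrays. Means were 14.09 ± 0.098 and 14.56 ± 0.10 (SD, n = 4 each), a difference of 0.47 (SE 0.070), or 1.39-fold. Its spread within groups (0.099) was below that of the median tested gene (0.18), and that of Bex2 was 0.54.

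Bex6, of the 7 the gene outside the X-linked group, overlapped between groups. It had log2 signals of 10.05, 10.71, 10.32 and 9.56 in control and 10.89, 10.63, 11.29 and 10.57 in menin-deficient arrays, so control replicate 2 exceeded 2 of the menin-deficient arrays. Means were 10.16 ± 0.48 and 10.85 ± 0.33 (SD, n = 4 each), and the difference was 0.68 (SE 0.27), which did not pass under any of 23 alternative settings.

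The Tceal genes resemble a transcription elongation factor in sequence. Tceal1 had log2 signals of 8.84, 8.16, 8.75 and 8.46 in control and 9.74, 9.61, 9.27 and 9.28 in menin-deficient arrays. Means were 8.55 ± 0.31 and 9.48 ± 0.23 (SD, n = 4 each), a difference of 0.92 (SE 0.18), or 1.90-fold. The groups were apart by 0.43.

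Tceal8 had log2 signals of 11.18, 11.17, 11.28 and 10.94 in control and 11.88, 12.00, 11.80 and 11.81 in menin-deficient arrays. Its difference of 0.73 (SE 0.084), or 1.66-fold, was smaller than that of Tceal1, but its spread was smaller too: means were 11.14 ± 0.14 and 11.87 ± 0.093 (SD, n = 4 each). The groups were apart by 0.52.

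**Figure D2:**
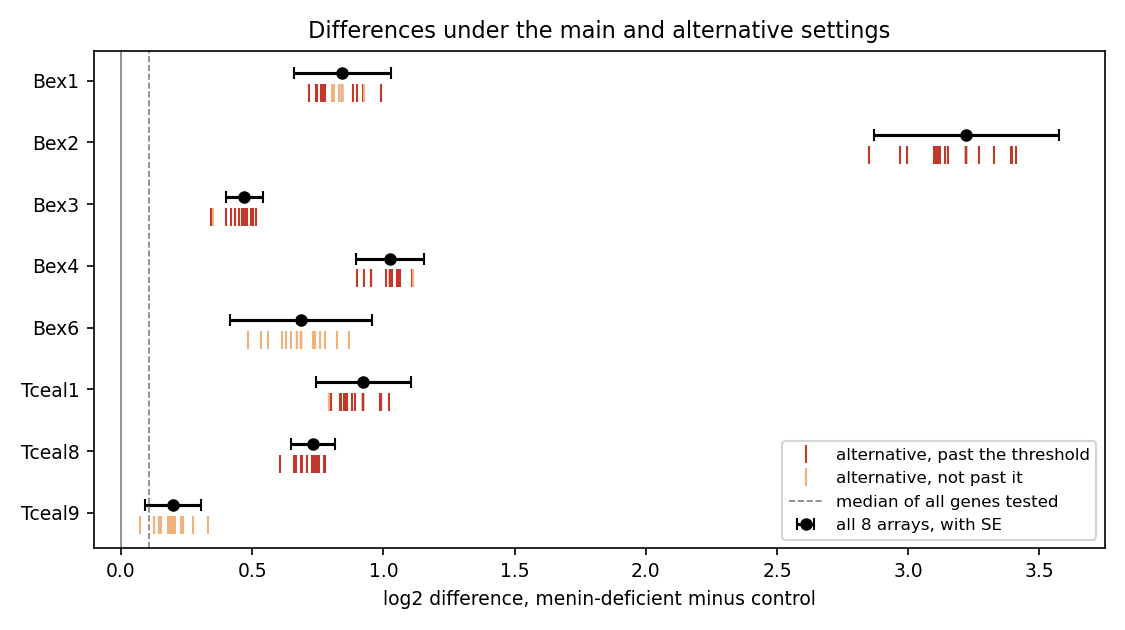
Log2 difference, menin-deficient minus control (horizontal axis), of the 7 genes and Tceal9; black points with bars are values over all 8 arrays with SE, and ticks below them are alternative settings, red where past an adjusted p threshold and orange where not. All ticks lie above 0, Bex2 stays between 2.85 and 3.41, and no tick of Bex6 or Tceal9 is red.

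After each array was centred on the median of the tested genes, the 7 genes kept differences of 0.34 (Bex3) to 3.10 (Bex2), and the same 6 genes passed, against 7.67% of genes higher in that fit. Bex1 was lost most often of the 6: it did not pass without control replicate 1, without control replicate 4 or without menin-deficient replicate 4. Bex2 and Tceal8 passed under all 23 alternatives.

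Sex was checked because 6 of the 7 genes are X-linked and the groups were not balanced. By Xist and Eif2s3y, 1 control mouse (replicate 3) and 2 menin-deficient mice (replicates 1 and 2) were male. Bex2 was highest in the male array of the control group (4.80 against a mean of 4.12 in the females) and in both male arrays of the menin-deficient group (a mean of 8.05 against 6.97). Tceal8 had the same order, with 11.28 against 11.10 in control and 11.94 against 11.81 in menin-deficient arrays. The other genes did not keep this order in both groups, apart from Tceal1 and Bex1 by their means. Bex4 was 8.92 in male and 9.05 in female menin-deficient arrays, and Bex3 was 13.99 in the male and 14.13 in the female control arrays.

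Among the 5 females (3 control and 2 menin-deficient), menin-deficient minus control was 2.85 in Bex2, 1.11 in Bex4, 0.93 in Bex1, 0.82 in Bex6, 0.79 in Tceal1, 0.71 in Tceal8 and 0.35 in Bex3. Of these, Bex2 and Tceal8 passed the threshold, and 4.07% of all genes were called higher with these 5 mice. With sex as a covariate the same 6 genes passed as with all arrays, against 14.9% of genes higher.

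**Figure D3:**
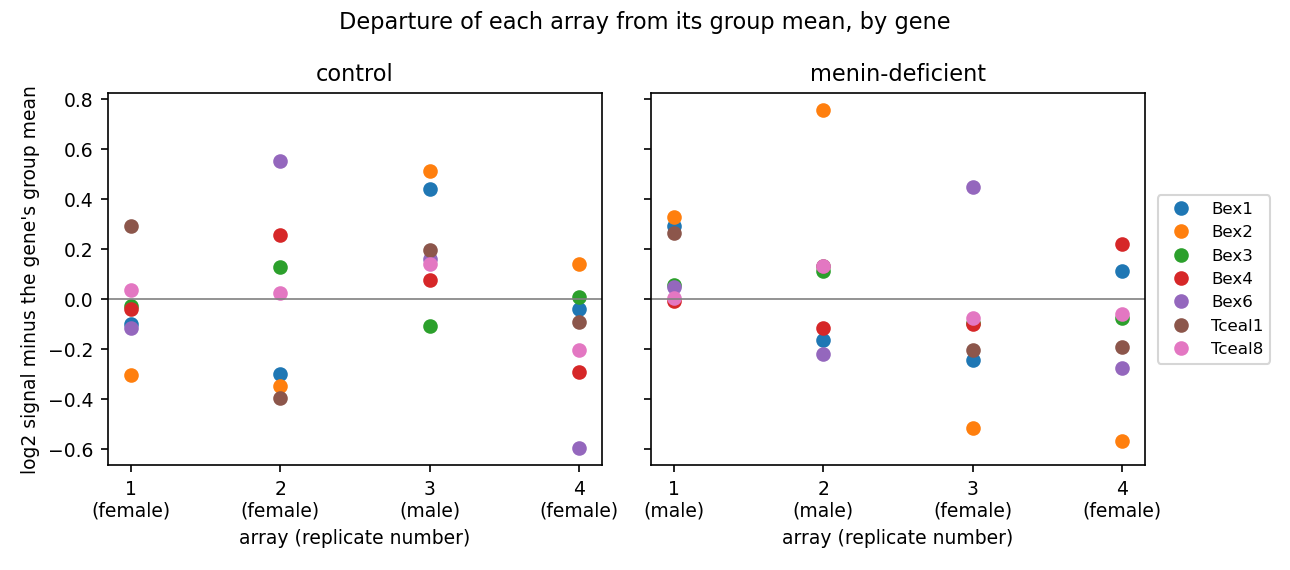
Log2 signal of each of the 7 genes minus its own group mean (vertical axis) on each array of the control (left) and menin-deficient group (right), with the sex read from Xist and Eif2s3y under each replicate number. In the male control replicate 3 and the male menin-deficient replicate 1, 6 of the 7 genes lie above their group mean; menin-deficient replicate 3, a female, has 1 above.

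Some arrays were high for most of the 7 genes. Control replicate 3 and menin-deficient replicate 1 lay above the group mean in 6 of 7 genes, and menin-deficient replicate 3 in 1. Single genes departed from their group mean by up to 0.75 (Bex2 in menin-deficient replicate 2) and down to -0.60 (Bex6 in control replicate 4). Bex6 was highest in menin-deficient replicate 3, where the other 6 were below their means.

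Other blood cells were checked by marker lists. B-cell progenitor markers were high in every array (a mean log2 signal of 13.99 to 14.16 in control and 14.16 to 14.26 in menin-deficient arrays over 15 genes). Of the 15, 4 rose and 1 fell (1 and 1 after centring on the median tested gene). The marker that fell was Rag1 (by 0.28), the gene for which the Cre is named, a call lost under 10 of 22 alternatives. T cell markers averaged 3.92 to 4.02 and 4.52 to 4.66 over the 13 on the array, those at background included. Of 7 tested, 5 were higher (4 after centring). These were Thy1 by 2.65, Lat by 1.76, Cd5 by 1.33, Cd28 by 0.98 and Cd3g by 0.78, with Cd28 near background (3.47 in menin-deficient arrays). Cd8a and Bcl11b did not pass, and Cd3e, Cd6, Cd8b1 and Themis lay under the 40th percentile on all arrays. NK cell markers averaged 4.68 to 4.94 and 5.13 to 5.70 (3 of 11 higher), plasmacytoid dendritic cell markers 7.60 to 7.77 and 7.96 to 8.24 (2 of 12 higher), and megakaryocyte and mast cell markers 6.42 to 6.80 and 6.85 to 7.52 (2 of 8 higher, 0 with sex as a covariate). Neural markers, of interest because Bex genes are high in neurons, averaged 3.05 to 3.12 and 3.19 to 3.31, with 10 of 19 under the 40th percentile on all arrays, Snap25, Syt1 and Nefl among them. Of 7 tested, Ncam1 (3.52 in menin-deficient arrays, near background) and Uchl1 (0.77 higher) passed, but Uchl1 did not pass in 14 of 22 alternative fits, including those with arrays centred on tested genes or sex as a covariate, nor Ncam1 in 6 of 20. The other lists overlapped between groups: stem and early progenitor (0 higher and 1 lower of 12), monocyte (3 higher of 11, 1 after centring), neutrophil (0 of 10), erythroid (1 higher of 7, 0 after centring) and stromal (0 of 7). At an unadjusted p of 0.05 in limma, 2 stem cell, 1 neutrophil and 1 stromal marker were higher. The part of any of these cells in the Bex and Tceal values was not tested.

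Other family members on the array are given for comparison. Tceal9 (also called Wbp5), next to Bex3 in the X-linked row, had log2 signals of 14.21, 14.09, 14.49 and 14.22 in control and 14.43, 14.37, 14.67 and 14.34 in menin-deficient arrays. Its difference of 0.20 (SE 0.11, limma adjusted p = 0.227) did not pass, and control replicate 3 exceeded 3 of the menin-deficient arrays. Tceal7 sat at the lowest value of the table (2.08) on all 8 arrays, and the probe set shared by Tceal3, Tceal5 and Tceal6 lay between 2.13 and 2.21. So of the Bex and Tceal genes that passed the filter on low values, Tceal9 was the one left out of the 7, a choice made with its result known.

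Neighbours on the X chromosome were examined as a fixed list of genes of this region, and in their order in RefSeq. The stretch examined ran from 15 protein-coding genes before Tceal6, the outermost Tceal gene on that side, to 15 after Tceal1. Of its 21 tested genes other than the 7, 5 were higher, 0 lower and 16 did not pass in limma, while at an unadjusted p of 0.05 the counts were 7 higher and 2 lower. Among the 368 tested X-linked genes 19.3% were higher and 5.98% lower, and among all tested genes 16.2% were higher. The median difference of the 21 was 0.16.

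All 5 that rose belong to the Armcx and Gprasp families, known respectively for proteins at mitochondria and for proteins that sort G protein-coupled receptors. Gprasp2 rose from 5.87 ± 0.65 to 7.44 ± 0.20 (log2 signal, SD, n = 4 each), a difference of 1.57 (SE 0.31, limma adjusted p = 0.0150), a call lost in female mice and with the replicate number as a block. Armcx6 rose by 0.90 (adjusted p = 0.0228, lost under 7 of 22 alternatives), Gprasp1 by 0.71 (adjusted p = 0.00926), Armcx1 by 0.65 (adjusted p = 0.00916) and Armcx3 by 0.49 (adjusted p = 0.00886). A second Armcx3 probe set differed by -0.13 (adjusted p = 0.445 in a fit of all single probe sets), so the Armcx3 call rests on 1 of its probe sets.

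These families were grouped after the values were seen: of 9 tested Armcx, Gprasp and Bhlhb9 genes 5 rose, with differences from -0.32 to 1.57, and of 12 other neighbours 0 changed in limma at an adjusted p of 0.05 (1 higher and 1 lower at an unadjusted p of 0.05), with differences from -0.55 to 0.35. Armcx4 differed by 0.64 (adjusted p = 0.0578). The count of higher genes in the fixed list was 5 after centring on the median tested gene too, where 2 were lower. In female mice alone limma called 0 higher and 0 lower (4 higher and 4 lower at an unadjusted p of 0.05).

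**Figure D4:**
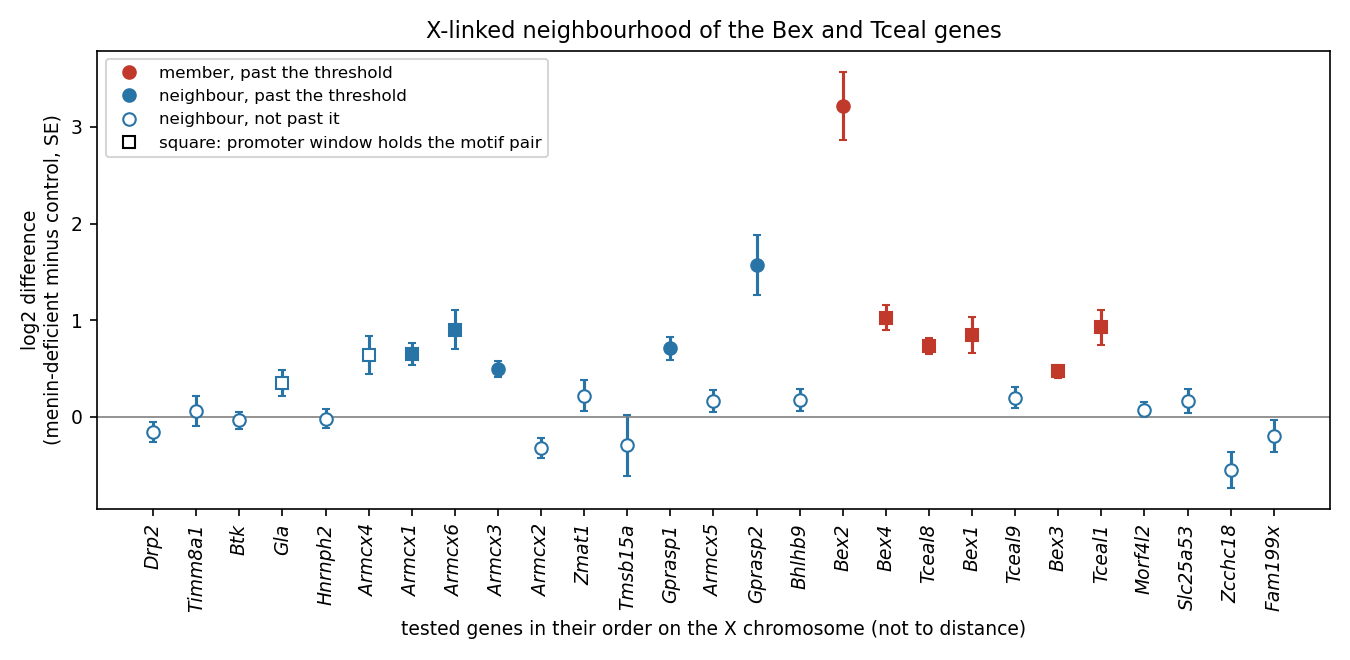
Log2 difference, menin-deficient minus control, with SE (vertical axis) of tested genes in their order on the X chromosome (horizontal axis, not to distance); red marks the 6 X-linked Bex and Tceal genes described, blue their neighbours, filled symbols pass an adjusted p of 0.05 and squares have the motif pair in a promoter window. Bex2 (3.22) and Gprasp2 (1.57) stand highest, and the genes beyond Tceal1 and before Armcx4 do not pass.

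Genes with the motif pair were found among those that rose and those that did not. Of the 12 genes of this neighbourhood with the pair, 9 were tested singly: the 5 of the described set, Armcx1 and Armcx6, which rose, and Armcx4 and Gla, which did not pass (Gla 0.35, adjusted p = 0.106). Bex2, Gprasp1 and Gprasp2 were higher and had windows without the pair, and Armcx3 had no window in the RefSeq table. Over the whole genome, 29 tested genes other than the 7 had the pair. Of these, 6 were higher (20.7%, against 16.2% of all tested genes), 2 lower and 21 not past the threshold, with a median difference of 0.16.

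Genes around the p75 neurotrophin receptor, to which Bex1 and Bex3 bind, were counted from a fixed list. The receptor gene itself, Ngfr, was near the lowest value of the table (2.08), with means of 2.30 in control and 2.23 in menin-deficient arrays. Among the 26 genes tested 8 rose and 0 fell in limma (1 lower at an unadjusted p of 0.05). The median difference was 0.080 (all genes 0.11), and after centring 6 were higher and 1 lower. For this list and the lists that follow, the shares over all tested genes were 16.2% higher and 5.17% lower. After centring on the median tested gene 7.67% were higher. The lowest p-values were in Ndn, Mageh1 and Maged1, members of the MAGE family that binds this receptor or its partners. Ndn, the imprinted gene necdin, differed by 5.05 (33.2-fold, SE 0.26, limma adjusted p = 0.000363). Its control mean was 4.80, not far above the lowest value, so this fold is approximate. Other Ndn probe sets that passed the filter differed by 3.72 to 5.70, and the rest sat at the lowest value in both groups. Mageh1, which differed by 2.04 (adjusted p = 0.00107), and Maged1, which differed by 1.87 (adjusted p = 0.00274), are X-linked. Not all MAGE genes of the list rose: Magee1 differed by 0.12 (limma adjusted p = 0.231), and Magel2 lay under the 40th percentile on all arrays. Magee1 was near background too, with means of 3.36 in control and 3.49 in menin-deficient arrays.

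LMO2, with which human BEX2 has been found, was followed through a list of Lmo2, Tal1 and Ldb1 complex partners. That list held Lmo2 itself and the LMO genes Lmo1 and Lmo4. Of 18 tested, 5 rose (Lmo2 and Lmo1 among them) and 2 fell, with a median of 0.28. After centring 2 were higher and 2 lower. Lmo4 fell by 0.97 on the log2 scale (adjusted p = 0.00572 in limma). Ldb1, the LIM-domain binding scaffold, rose by 0.63 (adjusted p = 0.00672), and Erg, an ETS factor, rose by 0.36 (adjusted p = 0.0123). The Erg call was lost after centring on the median tested gene, and its other probe set differed by -0.039. Lmo2 itself rose by 0.46 (adjusted p = 0.0269), a call lost under 10 of 21 alternatives.

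Factors of RNA polymerase II elongation, the machinery that Tceal proteins resemble, were counted too. Among the 36 genes tested 2 rose and 1 fell, with a median of 0.013, and after centring 1 was higher and 3 lower. Cdk13, a kinase of the polymerase tail, fell by 0.80 (adjusted p = 0.00201 in limma), while the other 2 Cdk13 probe sets that passed the filter differed by 0.043 and 0.096 and the last had a mean at the lowest value in both groups. The call was lost with the mean of its probe sets (-0.22). Nelfe, a subunit of the pausing factor NELF, rose by 0.48 (adjusted p = 0.00946), and Mllt3 by 0.56 (adjusted p = 0.0415), a call lost after centring.

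By a rule set with the lists, the 5 genes whose course over the 8 arrays was most like that of Bex2 were Cda, Depdc7, Lmcd1, Wscd1 and Clic6. The mean absolute difference from the Bex2 profile, each profile centred on its own mean, was 0.29, 0.39, 0.41, 0.43 and 0.44 on the log2 scale. These profiles hold the step between the groups, so the measure favours genes with a step like that of Bex2 (3.22). The steps of the 5 genes ran from 2.70 (Depdc7) to 3.76 (Wscd1), and likeness within groups was not tested. Cda, cytidine deaminase, shared the order of the menin-deficient arrays at the top, with 6.39 in replicate 2 and 6.08 in replicate 1. For Bex4 the nearest were Pgm1 (0.11), a phosphoglucomutase, Hlcs (0.12), Abhd14a (0.13), Hopx (0.13) and Septin4 (0.14). RefSeq places all 10 genes on autosomes.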

How the data were processed

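Per the labels' protocols, total RNA of the sorted cells was amplified, given a biotin label and read on Affymetrix mouse genome arrays. The authors deposited 1 table of log2 values (log2 judged from the range of 2.08 to 17.4). MAS5 and GCRMA appear in the submitters' processing notes, but the role of each was not given in the sources used here. On each array 36.1% to 36.7% of probe sets shared the lowest value, so low levels are compressed. Array correlations were 0.991 to 0.996 within and 0.985 to 0.991 between groups.

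Probe sets with 1 symbol in the platform annotation (34945 of 45037, with 932 naming several and 9160 none) were kept if 4 or more of the 8 arrays put them over that array's 40th percentile, and the brightest stood for a gene, which left 11885. All 7 Bex and Tceal genes passed. Groups came from the sample titles. The comparison used limma 3.58.1 under R 4.3.3 (lmFit, then eBayes), and p-values were adjusted by Benjamini-Hochberg over all tested genes, with calls at 0.05. Promoter windows were aligned with Biopython 1.88. Figures were drawn with matplotlib 3.10.9. The fit was tested on simulated data.

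The 7 genes and the lists were chosen with earlier results of these data known. Genes were named by rule: every probe set of the 7 genes, the other family genes, Men1, up to 3 called genes with the lowest p in each list, and the 5 profiles nearest to each of the 2 genes with the largest difference. Lmo1, Lmo2, Armcx4, Armcx6, Gprasp2 and Gla were added after their values were seen. The text gives a selection of the marker genes.

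Alternatives were quantile normalization, centring on all probe sets or on tested genes, no filter or a 60th percentile filter, the mean of probe sets, every probe set alone, no _x_at, _s_at or _a_at probe sets, trended or robust eBayes, array weights, a replicate block, sex as covariate, female mice alone (probe sets above the filter on at least 3 arrays), a threshold of 0.10, and leaving out each array.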

Additional observations from a re-analysis of the deposited data

Results flagged for a closer look

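Among 92 groups of 4 arrays, 4 had 1 array set apart from the other 3, and chance alone sets apart about 1 in 20 groups. None was a group of the 7 Bex and Tceal genes. Menin-deficient replicate 3 stood low in Mbd3 (12.59, others 12.76 to 12.79), and menin-deficient replicate 2 stood high in Uchl1 (11.95, others 11.54 to 11.60). Control replicate 4 in Lmcd1 (2.86, others 2.71) and control replicate 3 in Wscd1 (2.27, others 2.24) stood apart from arrays that shared 1 value near the lowest of the table.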

How the results depend on the processing

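The differences of Bex1, Bex2, Bex4, Bex6 and Tceal1 moved by less than their spread within groups under all alternatives that could be fitted, and none of the 7 reversed. Of the other genes, Ccr9, from the plasmacytoid dendritic cell list, and Dntt, from the B-cell progenitor list, which were higher, turned to -0.033 and -0.44 without _x_at, _s_at and _a_at probe sets. Bex3 moved to 0.34 after centring on the median tested gene and to 0.35 in female mice, and Tceal8 to 0.60 after that centring. Without _a_at probe sets, Bex1 and Bex3 had no value, and 4 of the 5 others passed. The count of the 7 genes past the threshold, 6 with all arrays, was 2 in female mice alone and 5 to 6 on leaving out 1 array. Genes called in all (2536) were 1673 without a filter, 625 in female mice and 1410 to 2255 on leaving out 1 array, lowest without menin-deficient replicate 2 and 1609 without control replicate 1. Genes called higher (1922) were 1082 after centring on all probe sets, 911 after centring on tested genes, 1257 without a filter, 483 in female mice and 1038 to 1687 on leaving out 1 array. Genes called lower (614) were 971 after centring on tested genes, 1113 with every probe set alone, 374 without _x_at, _s_at and _a_at probe sets, 142 in female mice and 372 to 568 on leaving out 1 array. Replicate numbers did not pair the arrays: departures from the group means of same-numbered arrays correlated at -0.11, -0.31, -0.17 and 0.046 across genes. With the replicate block 1328 genes passed, 984 higher and 344 lower, and 5 of the 7 genes, Bex1 being the one lost. Low signal limits the fold of Bex2, whose control mean (4.29) is near the lowest value of the table (2.08).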

Other observations

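Genes that write, read or remove DNA methylation, which is known to silence BEX genes in some tumours, were counted from a fixed list. Among the 20 genes tested 2 rose and 3 fell (1 and 4 once arrays were centred on the median tested gene). Mbd3, a subunit of the NuRD complex, rose by 0.52 (limma adjusted p = 0.00399), and Apobec1, a cytidine deaminase, fell by 0.86 (adjusted p = 0.00572). Zbtb4, a methyl-CpG binding repressor, fell by 1.21 (adjusted p = 0.00843). Of its other probe sets 1 differed by -0.63 (adjusted p = 0.0177 in a limma fit of all single probe sets) and 1 by 0.12, and the last sat at the lowest value.

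X-inactivation genes were counted because most Bex and Tceal genes are X-linked. Among the 23 genes tested 2 rose and 1 fell, with a median difference of -0.082, and after centring limma called 0 higher and 2 lower (1 and 8 at an unadjusted p of 0.05). Ftx, a noncoding gene beside Xist, fell by 0.75 (limma adjusted p = 0.0161), a call lost in female mice alone. Rlim rose by 0.24 (adjusted p = 0.0234) and Ciz1 by 0.34 (adjusted p = 0.0448), and both calls were lost after centring on the median tested gene. The Rlim call rests on 1 of its probe sets. Its others that passed the filter differed by 0.14, -0.19 and -0.034, and the call was lost with the mean of its probe sets (0.040).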
